A study of Homo sapiens with 6 samples.

Results

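The genes described here are 10 genes of translation factors and associated proteins whose messenger RNAs are known to carry a 5′ terminal oligopyrimidine (TOP) sequence: EEF1A1, EEF1B2, EEF1D, EEF1G, EEF2, TPT1, PABPC1, EIF3E, EIF3F and EIF3H. They were taken by name, without use of measured values, from the 62703 Ensembl gene IDs of the count tables. All 10 names matched 1 ID each, and 9 had counts. RNA was measured by total RNA sequencing in 6 libraries of SEM, a human cell line from an acute lymphoblastic leukaemia of B-cell precursors that has the KMT2A::AFF1 fusion. In the 3 knock-down (KD) libraries, SEM cells had been transfected with a pair of Dicer-substrate siRNAs (DsiRNAs) placed over the back-splice junction of AK_8_2, a circular RNA of the fusion gene. In the 3 negative control (NC) libraries the same line had received a commercial non-targeting DsiRNA. Both groups were transfected by lipofection in reverse and again, in forward format, after 24 h, so neither is untransfected, and all 6 libraries come from a single cell line. The series design names the replicates as independent without saying what separated them, so the p-values measure the spread between these libraries.

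A TOP messenger RNA starts with a cytidine that is followed by an unbroken run of pyrimidines, and nearly all cytoplasmic ribosomal protein genes and several translation factor genes make such messages. Their translation is switched on and off together by the kinase complex mTORC1, and the RNA-binding protein LARP1 binds the capped TOP end, holds it back from translation when mTORC1 is inactive and stabilises the message. These data give the abundance of RNA and say nothing of its translation. The question asked of the 10 genes is what their levels were in SEM cells, whether they differed between KD and NC, and whether they followed the ribosomal protein genes.

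The start of the transcripts is shown because it defines the class. RefSeq (GRCh38.p14) start-site sequences were at hand for 6 of the 10 genes, EEF1A1, EEF1B2, EEF1G, EEF2, TPT1 and EIF3F. Each line gives 30 bases of the sense strand, 10 before the annotated start and 20 from it on, and capitals mark the unbroken pyrimidine run that begins with C at the start where it holds 5 or more bases. EEF1B2 has an upstream and a downstream annotated start. RPLP0, a ribosomal stalk protein gene, and NAP1L1, a histone chaperone gene with a TOP messenger RNA, are shown for comparison, and TUFM, the mitochondrial elongation factor gene, is shown as a translation factor gene with no such start.
EEF1A1: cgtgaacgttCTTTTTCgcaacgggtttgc
EEF1B2 downstream start: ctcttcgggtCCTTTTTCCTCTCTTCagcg
EEF1B2 upstream start: aagtggccccagcctcgaggccgggcgtct
EEF1G: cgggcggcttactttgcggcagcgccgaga
EEF2: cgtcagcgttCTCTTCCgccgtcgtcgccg
TPT1: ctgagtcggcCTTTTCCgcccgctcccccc
EIF3F: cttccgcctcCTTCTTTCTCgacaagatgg
RPLP0: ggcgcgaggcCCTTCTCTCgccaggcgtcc
NAP1L1: gctcttgggtCTTTTTTagcgccatctgct
TUFM: cgccggaagtgccttccagccgcaggcgcc

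A start with C followed by at least 4 further C or T, read on the sense strand at the annotated first base only, was present in 5 of the 6 genes. The run was 7 bases in EEF1A1 (start at chromosome 6, 73521032, minus strand), EEF2 (chromosome 19, 3985463, minus) and TPT1 (chromosome 13, 45341183, minus), 10 in EIF3F (chromosome 11, 7987337, plus) and 16 at the downstream start of EEF1B2 (chromosome 2, 206159895, plus). EEF1G (chromosome 11, 62573891, minus) had no such run at its annotated first base, which is an A with the letters CTTT behind it. The same pattern was present in 47 of 63 ribosomal protein genes with an entry (74.6%), in 0 of 10 mitochondrial translation factor genes, and in 5.14% of all 27305 genes with an entry. A match describes these letters at an annotated start and does not show where transcription began in SEM cells.

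Counts in genes totalled 16531673 to 26694160 per KD library and 14750579 to 24186646 per NC library. Both replicate 1 libraries stood apart: 50.03% of the records of the KD library and 48.6% of those of the NC library lay outside annotated features, against 11.3% to 17.3% in the other 4 libraries, and 53121 and 52077 genes were detected, against 30641 to 32311. In KD replicate 3, multiply aligned reads made up 31.5% of the records (17.3% or less in the others), and the mitochondrial ribosomal RNA genes took 6.79% of the gene counts, against 0.293% to 1.34% in the other 5 libraries. Of 9 B-cell precursor markers, 7, among them PAX5 and EBF1, were at or above 1 CPM (count per 1000000 gene counts) in every library, with summed levels of 1552 to 1842 CPM in KD and 1632 to 1920 CPM in NC; RAG1 and DNTT were below 1 in replicates 2 and 3. Summed levels of 5 T-cell markers reached 6.17 in KD and 9.08 in NC, and those of 5 erythroid markers 2.78 in KD and 2.17 in NC. The 5 myeloid markers summed to 24.2 to 25.8 in KD and 23.4 to 27.7 in NC, mostly CSF1R and LYZ, and the 5 stromal markers to 4.57 to 23.2 in KD and 3.23 to 21.8 in NC, mostly COL1A1.

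EEF1G, the gamma subunit of elongation factor 1 (ENSG00000254772.10, chromosome 11, 62559601 to 62574086, minus strand), was listed at 0 counts in every KD and every NC library. Genes of the other elongation factor subunits were abundant in the same libraries, so the value cannot be read as an expression level. In GENCODE 29, 99.9% of the 2716 exonic bases of EEF1G are also exonic bases of another gene on the same strand, ENSG00000255508.7, or of the microRNA gene MIR6747. ENSG00000255508.7 had 12, 9 and 3 counts in the KD libraries 1 to 3, against 12, 4 and 9 counts in the NC libraries 1 to 3. By default HTSeq sets reads that overlap several genes aside in an ambiguous class, which held 2.63% to 5.65% of the records in KD and 2.58% to 5.94% in NC. Whether reads of EEF1G lie in that class was not tested, and EEF1G takes no part in what follows.

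The other 9 genes were among the abundant messages of SEM cells. Levels between genes are given as CPM, from here on with library sizes normalised by the trimmed mean of M-values, per kilobase of the shortest GENCODE 29 principal transcript. EEF1A1 was the highest on this scale, with 3984 ± 478 CPM per kilobase for KD and 3872 ± 499 for NC (mean ± SD of 3 libraries, as in the rest of this paragraph), and ranked 6 of 12240 protein-coding genes. EEF2 followed with 1086 ± 249 in KD and 1069 ± 224 in NC. EEF1B2 (896 ± 155 in KD, 872 ± 130 in NC) and PABPC1 (879 ± 147 in KD, 868 ± 117 in NC) could not be ordered beyond their spread, since EEF1B2 was the higher in 4 of 6 libraries, and the range of EEF2 overlapped that of EEF1B2, although EEF2 was the higher in 6 of 6. EIF3E had 315 ± 8.39 CPM per kilobase in KD and 308 ± 5.14 in NC, and TPT1 had 236 ± 10.95 in KD and 219 ± 6.54 in NC. EEF1D (182 ± 35.8 in KD, 176 ± 34.3 in NC) and EIF3F (170 ± 27.9 in KD, 172 ± 24.1 in NC) overlapped in range, and EIF3H was the lowest with 87.9 ± 7.72 in KD and 82.2 ± 3.94 in NC. The order depends on the length taken, which was 4735 bases for TPT1 and 3959 for EIF3H, against 1543 for EIF3E and 1254 for EIF3F. Without division by length, TPT1 had 1118 ± 51.9 CPM in KD and 1036 ± 31.0 in NC, against 486 ± 12.9 and 475 ± 7.94 for EIF3E. EIF3H had 348 ± 30.6 and 325 ± 15.6, against 213 ± 34.9 and 216 ± 30.3 for EIF3F. Which transcripts SEM cells made was not tested, so the places of TPT1 and EIF3H are uncertain. With all annotated exonic bases as the length, EEF1A1 and EEF2 stayed first and second, while PABPC1 stood above EEF1B2 and TPT1 above EIF3E in 6 of 6 libraries, and EIF3F rather than EIF3H was the lowest.

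**Figure D1:**
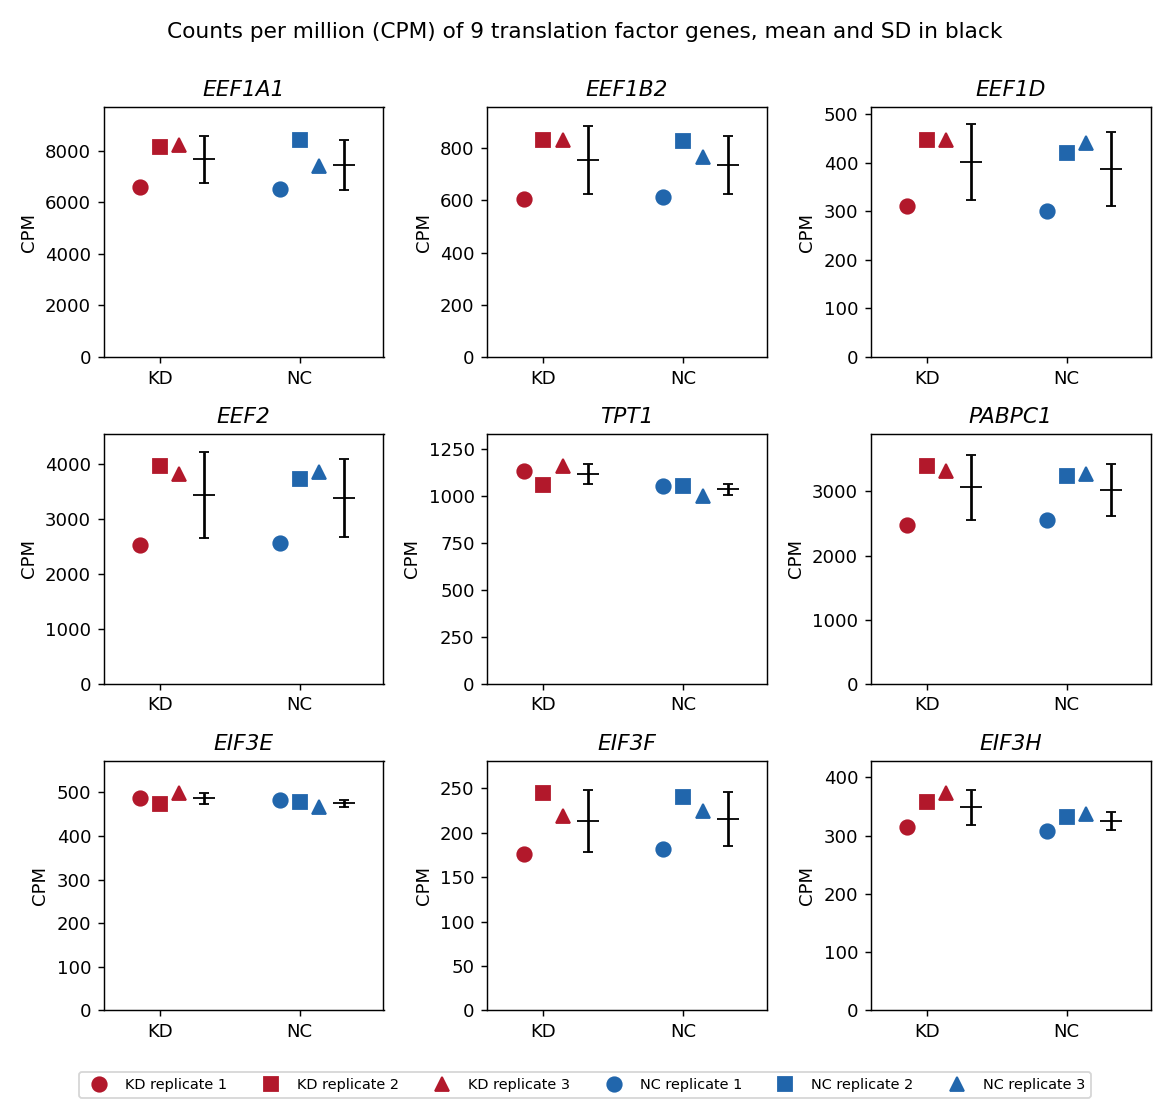
CPM of each of the 9 measured genes (vertical axis, from 0) in the 3 KD libraries (red) and the 3 NC libraries (blue); symbols mark the replicate number and black bars the mean and SD of each group. TPT1 is the gene whose KD libraries, at 1059 to 1159 CPM, all lie above its NC libraries, at 1001 to 1056 CPM, and in EEF2 and EEF1D the replicate 1 libraries of both groups lie far below the others.

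Among the elongation factor genes, no difference between KD and NC passed the test. EEF1A1 (ENSG00000156508.19, chromosome 6, 73515750 to 73523797, minus strand) encodes the factor that brings aminoacyl-tRNA to the ribosome. It had 6599, 8161 and 8222 CPM in KD replicates 1, 2 and 3, against 6513, 8430 and 7395 CPM in NC replicates 1, 2 and 3. The groups overlapped, and the KD library was the higher one in replicates 1 and 3 and the lower one in replicate 2. Bulk values of this kind cannot tell fewer cells with a message from less of it per cell. EEF1B2 (ENSG00000114942.14, chromosome 2, 206159585 to 206162928, plus strand) and EEF1D (ENSG00000104529.19, chromosome 8, 143579697 to 143599541, minus strand) encode the guanine nucleotide exchange subunits that recharge the first factor with GTP. EEF1B2 stood at 605, 830 and 833 CPM in KD and at 614, 826 and 766 CPM in NC. EEF1D stood at 311, 448 and 447 CPM in KD and at 301, 420 and 442 CPM in NC. Both overlapped between groups, and EEF1D was higher in KD within each replicate number, by 0.05, 0.09 and 0.02 on the log2 scale. EEF2 (ENSG00000167658.16, chromosome 19, 3976056 to 3985469, minus strand), the GTPase that moves the ribosome along the message, had 2532, 3960 and 3818 CPM in KD, against 2566, 3735 and 3848 CPM in NC. KD exceeded NC for EEF2 in replicate 2 alone.

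TPT1 (ENSG00000133112.17, chromosome 13, 45333471 to 45341370, minus strand) encodes the translationally controlled tumour protein, a small abundant growth-related protein whose message is a classical TOP message. It had 1134, 1059 and 1159 CPM in KD replicates 1, 2 and 3, against 1056, 1053 and 1001 CPM in NC replicates 1, 2 and 3. All KD libraries lay above all NC libraries, though KD replicate 2 exceeded NC replicate 1 by less than 1%. Groups without overlap in this direction were found for 1.67% of the 16929 genes tested and in the opposite direction for 1.77%, and among the 9 genes TPT1 was the only one. Its fold change was 0.11 (log2, SE 0.11) without regard to replicate numbers and 0.11 (SE 0.05) with the replicate number as a block, with adjusted p values of 1.00 and 0.950 by edgeR's quasi-likelihood test. The difference within replicate 3 was 0.21 and came from the pair whose KD library had the 31.5% of multiply aligned records and the 6.79% of counts on mitochondrial ribosomal RNA genes; it was 0.10 in replicate 1 and 0.01 in replicate 2. With 1 library left out and no block, the fold change ran from 0.05 (without KD replicate 3) to 0.14 (without NC replicate 2). With the block, leaving out replicate 1, 2 or 3 in both groups gave 0.11, 0.14 or 0.06. The part of these features of KD replicate 3 in the difference was not tested.

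PABPC1 (ENSG00000070756.17, chromosome 8, 100685816 to 100722809, minus strand) encodes the cytoplasmic poly(A)-binding protein, which ties the tail of a message to its initiation complex. It had 2477, 3392 and 3327 CPM in KD replicates 1, 2 and 3, against 2555, 3245 and 3272 CPM in NC replicates 1, 2 and 3. The groups overlapped, with differences of -0.05, 0.06 and 0.02 (log2) within replicates 1, 2 and 3.

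EIF3E, EIF3F and EIF3H encode subunits of initiation factor 3, the large complex that helps to recruit the small ribosomal subunit to the message. EIF3E (ENSG00000104408.11, chromosome 8, 108201216 to 108435333, minus strand) was the steadiest of the 9 genes, at 488, 472 and 498 CPM in KD and 482, 477 and 466 CPM in NC. EIF3F (ENSG00000175390.15, chromosome 11, 7970251 to 8001862, plus strand) had 176, 245 and 219 CPM in KD, against 182, 240 and 225 CPM in NC. EIF3H (ENSG00000147677.12, chromosome 8, 116642130 to 116766925, minus strand) had 314, 358 and 373 CPM in KD, against 307, 332 and 337 CPM in NC. The groups overlapped for all 3 of these genes. EIF3H was higher in KD within each replicate number, by 0.03, 0.11 and 0.15 (log2), while EIF3F was lower in KD in replicates 1 and 3 and had the only fold change below 0 among the 9 genes. The paired fold change of EIF3H was 0.10 (SE 0.05, edgeR quasi-likelihood adjusted p 0.999).

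None of the 9 genes passed the test between KD and NC, with or without the replicate number as a block. Across 16929 genes, the quasi-likelihood F test of edgeR, at a Benjamini-Hochberg adjusted p of 0.05, called 0 genes without the block (0% of those tested) and 29 with it (0.171%; 0.142% higher and 0.0295% lower in KD). DESeq2 without the block called 1 gene (0.00591%), which is not among the 9. At an unadjusted p under 0.05 there were 0 of the 9 genes without the block, where 0.307% of all tested genes were, and 2 with it, TPT1 (edgeR p 0.0299) and EIF3H (edgeR p 0.0481), where 4.97% of all tested genes did so. Log2 fold changes of the 9 genes ran from -0.02 (EIF3F) to 0.11 (TPT1) in both fits, with a median of 0.04 without the block and 0.03 with it, against a median of -0.0036 and -0.0051 over all tested genes. 8 of the 9 had an estimate above 0, against 48.6% of all tested genes, and 3 (EEF1D, TPT1 and EIF3H) were higher in KD within all replicate numbers, against 13.1% of all tested genes. The precision of these fits bounds the differences. All 9 paired 95% intervals, with a highest bound of 0.20 for TPT1, and all 9 intervals without the block lay inside a 1.5-fold change in either direction, although the unpaired interval of EEF2, -0.54 to 0.58, came close to that limit. Such intervals were found for 11271 of the 16929 tested genes with the block and for 8589 without it. Among the 79 ribosomal protein genes they were found for 79 with the block and 66 without it. Without the block, the median of the 9 genes turned to -0.065, -0.056 or -0.075 when KD replicate 2, KD replicate 3 or NC replicate 1 was left out, and that of the ribosomal protein genes to 0.0054, -0.015 or -0.015; such fits leave the replicate 1 libraries unequally divided between the groups. With the block, leaving out replicate 1, 2 or 3 gave 0.05, 0.03 or 0.01 for the 9 genes and 0.09, 0.07 or 0.07 for the ribosomal protein genes.

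**Figure D2:**
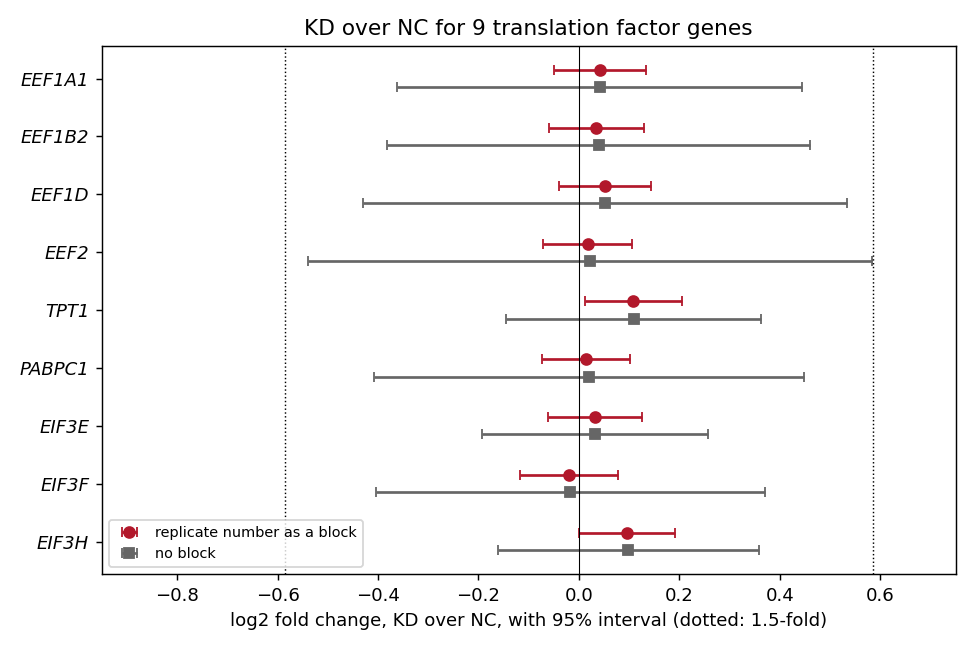
Log2 fold change of KD over NC for each of the 9 genes (rows) with its 95% interval, with the replicate number as a block (red circles) and without it (grey squares); the dotted lines mark a 1.5-fold change. All estimates lie between -0.02 and 0.11, and the intervals with the block are narrower than those without it.

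The spread within a group came mainly from the replicate 1 libraries and differed between the genes. Relative to the mean of replicates 2 and 3, replicate 1 of EEF2 was lower by 0.62 in KD and by 0.56 in NC on the log2 scale (values of -0.62 and -0.56). For EEF1D the same values were -0.53 in KD and -0.52 in NC, and for EEF1B2 -0.46 in KD and -0.37 in NC. PABPC1 (-0.44 in KD, -0.35 in NC), EIF3F (-0.40 in KD, -0.35 in NC) and EEF1A1 (-0.31 in KD, -0.28 in NC) lay between, and EIF3H was at -0.22 in KD and -0.12 in NC. TPT1 and EIF3E did not share the low level in replicate 1: TPT1 stood at 0.03 in KD and 0.04 in NC, and EIF3E at 0.01 in KD and 0.03 in NC. The median ribosomal protein gene was at -0.36 in KD and -0.29 in NC. Low levels in replicate 1 were not confined to these genes. Relative to each gene's mean over the 6 libraries, the other initiation factor genes had medians of -0.19 in KD and -0.18 in NC replicate 1. The ribosomal protein genes had -0.18 and -0.24, and all tested protein-coding genes -0.04 and -0.04. In the replicate 1 libraries, the high share of records outside features, 50.03% in KD and 48.6% in NC, moves with these values, and so do markers of other cell types. All 5 T-cell markers were higher in both replicate 1 libraries than in any of the other 4, with summed levels of 6.17 CPM in KD and 9.08 CPM in NC replicate 1, against 0.0749 to 0.248 CPM in the others. The same held for 3 of 5 erythroid markers (sums of 2.78 in KD and 2.17 in NC replicate 1, against 0 to 0.207) and 4 of 5 stromal markers (23.2 in KD and 21.8 in NC replicate 1, against 3.23 to 5.33). It also held for 3 of 5 myeloid and 5 of 9 B-cell precursor markers, whose sums in replicate 1 did not exceed the highest of the other 4 libraries. The part of these markers and of that share in the low levels of replicate 1 was not tested.

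**Figure D3:**
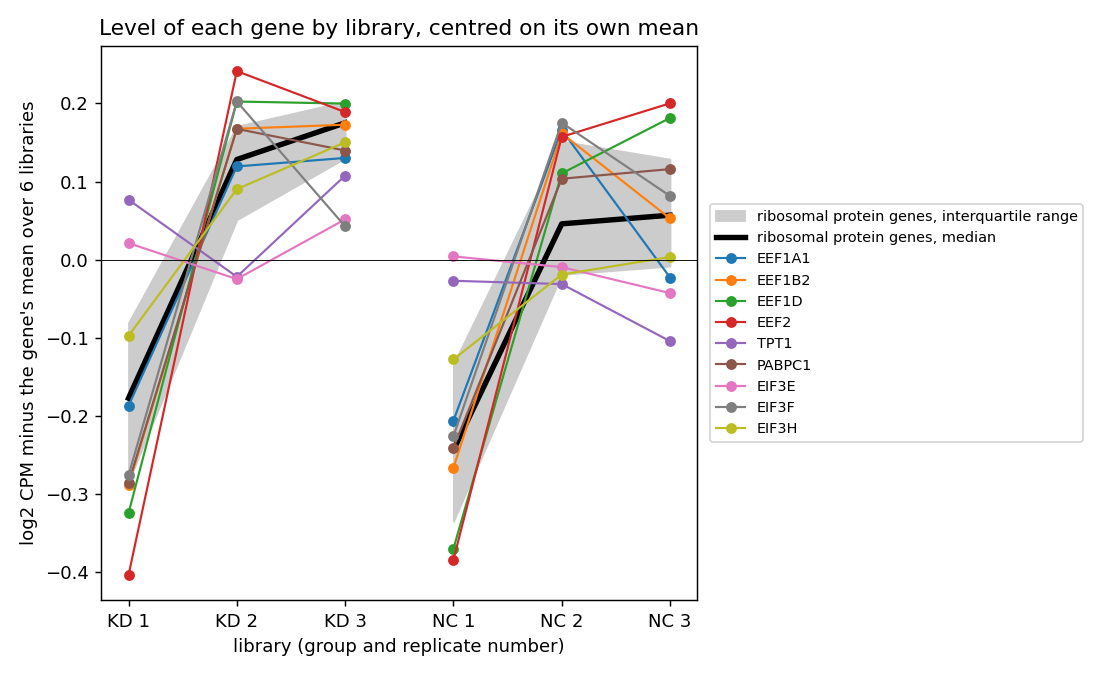
Log2 CPM of each gene minus its own mean over the 6 libraries (vertical axis) in KD replicates 1 to 3 and NC replicates 1 to 3 (horizontal axis), with the median (black) and interquartile range (grey) of 79 ribosomal protein genes. Most of the 9 genes dip with the ribosomal protein genes in replicate 1 of both groups, EEF2 the furthest (-0.40 in KD and -0.38 in NC), while TPT1 and EIF3E stay near 0.

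Against the ribosomal protein genes, the 9 genes had the same direction of the median difference at a smaller size. The 79 ribosomal protein genes, all tested, had a median log2 fold change of 0.08 in both fits, with 66 above 0, 0 called without the block, and 3 called higher in KD with it (0.142% of all tested genes were called in that direction). They included RPS29 (0.31, edgeR quasi-likelihood adjusted p 0.00122) of the small subunit and RPL27 (0.24, adjusted p 0.0275) of the large one. Within replicates 1, 2 and 3 the medians were 0.02, 0.03 and 0.09 for the 9 translation factor genes, against 0.06, 0.08 and 0.10 for the ribosomal protein genes. Of the 9 genes, 8, 6 and 5 lay below the ribosomal median in replicates 1, 2 and 3. TPT1 lay above it in replicates 1 and 3, with 88.6% of the ribosomal protein genes below it in replicate 3, and below it in replicate 2, where 24.1% were lower. EIF3H lay above it in replicates 2 and 3, with 64.6% and 63.3% lower. PABPC1, EIF3E and EIF3F lay below the ribosomal median in every replicate. In raw counts, the 9 genes gave 20.2, 21.7 and 20.9 counts per 100 ribosomal protein gene counts in KD replicates 1, 2 and 3, against 21.0, 22.8 and 21.4 in NC replicates 1, 2 and 3. The ratio was lower in KD within each replicate number, and the groups overlapped. Most of the counts in it came from EEF1A1, EEF2 and PABPC1, with means of 158222, 72284 and 64045 counts per library. TPT1 came next with 22211, so the ratio says little of the less abundant genes. No test was made of this ratio or of the medians, since the genes and the values of the ribosomal protein genes were known from earlier results of these data.

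**Figure D4:**
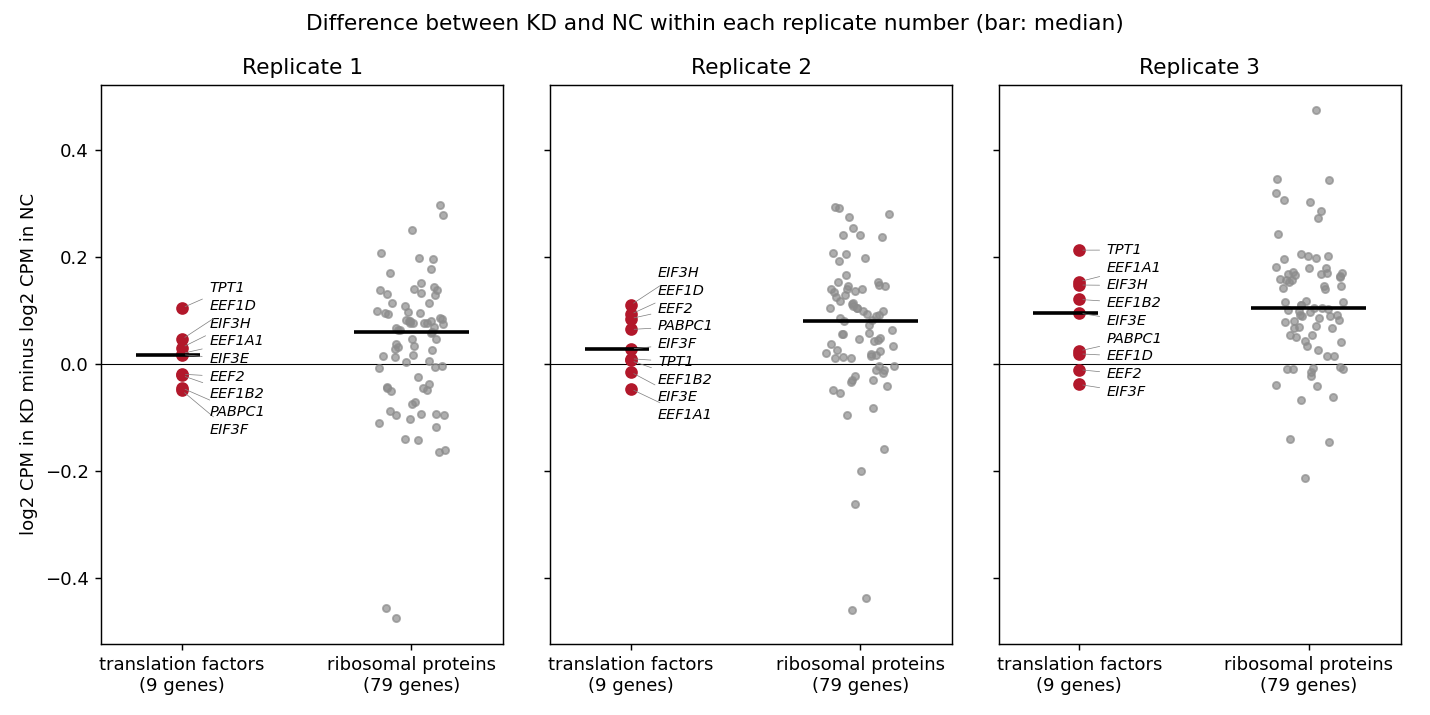
Log2 CPM in KD minus log2 CPM in NC within replicates 1, 2 and 3 (panels) for the 9 translation factor genes (red, named) and for 79 ribosomal protein genes (grey); bars are medians. The translation factor medians (0.02, 0.03 and 0.09) lie below the ribosomal medians (0.06, 0.08 and 0.10) in each panel, and the genes keep no common order between panels.

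Other genes of TOP or TOP-like messages lay in the same range, and none was called. Of a list of 6, 5 were tested (RACK1, NAP1L1, HNRNPA1, EIF4B and VIM), all with estimates above 0 and a median of 0.07 without and 0.06 with the block. RACK1, a scaffold protein of the small subunit, had 1297, 1683 and 1714 CPM in KD and 1164, 1594 and 1569 CPM in NC, a paired difference of 0.12 (SE 0.04, edgeR quasi-likelihood adjusted p 0.725). VIM, the intermediate filament gene vimentin, stood at 0.07. EEF1A2, the tissue-restricted paralogue of EEF1A1, had 69, 5 and 5 counts in KD and 69, 2 and 2 counts in NC, so that most of its counts were in the replicate 1 libraries, and it did not pass the filter on low counts.

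Other translation factor genes were not called either. A TOP start was present in 3 of the 7 other initiation factor 3 genes with an entry, in 2 of 19 other initiation factor genes and in 1 of 11 elongation, termination and poly(A)-binding factor genes. The 10 other subunit genes of initiation factor 3 had a paired median of 0.04 with 7 above 0, and EIF3G (0.08) and EIF3C (-0.17), whose counts are uncertain because a near-identical copy of the gene exists, had their smallest p values. The 20 other initiation factor genes had a paired median of -0.01 with 8 above 0, and the smallest p values were those of EIF5B (0.12), the ribosome-joining factor gene, and EIF1 (0.10), which guards start codon choice. The 12 elongation, termination and poly(A)-binding factor genes had a paired median of 0.03, with 8 above 0, and the smallest p values were those of PAIP2 (0.09) and PAIP1 (0.10), regulators of the poly(A)-binding protein. The 10 mitochondrial translation factor genes had a paired median of 0.05 with 7 above 0, and TUFM (0.14) and the mitochondrial initiation factor gene MTIF2 (0.09) had the smallest p values. This mitochondrial list, with no TOP start at its annotated first bases, had medians of 0.01, -0.01 and 0.12 within replicates 1, 2 and 3. The mTORC1 and LARP1 regulator genes, described next, had a TOP start in 0 of 9 genes with an entry. Their paired median was -0.02, with 3 of 11 above 0. A link between TOP starts and the medians of the lists was not tested.

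Genes that control the translation of TOP messages showed no call. LARP1 had 537, 808 and 748 CPM in KD replicates 1, 2 and 3, against 554, 764 and 790 CPM in NC replicates 1, 2 and 3, a paired difference of -0.01 (SE 0.05). MTOR, the kinase of mTORC1, had 119, 162 and 145 CPM in KD, against 123, 149 and 168 CPM in NC, a paired difference of -0.05 (SE 0.06). The groups overlapped for both genes. Over the 11 genes of this list the paired median was -0.02 and 3 estimates lay above 0, with RHEB, the GTPase that activates mTORC1, at 0.13 and TSC1, part of its inhibitor, at -0.09.

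Pseudogene copies named after the genes took small but unequal parts of the reads. Of the 106 listed, 98 are annotated as processed, that is, as messages written back into the genome, and 8 as unprocessed. Where a copy is like enough to its gene, a read can be placed on either; the likeness of their sequences was not measured. For EEF1A1, 49 copies were listed and held 4.01%, 3.14% and 3.17% of the counts of gene and copies together in KD replicates 1, 2 and 3, against 4.19%, 2.90% and 4.05% in the NC libraries of the same numbers. EIF3F had the largest share, 13.4%, 8.89% and 10.5% in KD and 11.2%, 8.94% and 8.04% in NC, nearly all of it on EIF3FP3 (chromosome 2, 58251440 to 58252525, plus strand). The 8 copies of EEF1B2 held 3.60% to 4.57% in KD and 3.61% to 4.02% in NC, and those of EEF1D 1.23% to 2.18% in KD and 1.29% to 2.36% in NC. Copies of TPT1, PABPC1 and EIF3E stayed below 0.5% of their families in every library, and no copies of EEF2 or EIF3H were listed by name. With the counts of the copies added, EIF3F stood at 0.0059 without the block and 0.0044 with it, so its sign depends on where these reads are counted; for the other 8 genes the sign held.

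None of the copies was called. Of the 106, 29 passed the filter on low counts, and in edgeR's quasi-likelihood test 0 were called in either fit, with 1 at an unadjusted p under 0.05 without the block (0.307% of all tested genes) and 6 with it (4.97% of all tested genes). EEF1A1P5 (chromosome 9, 133019486 to 133020874, plus strand), the copy with the most counts, had 3132, 5007 and 3564 counts in KD and 2587, 4203 and 4390 counts in NC, a paired log2 difference of 0.07. EEF1B2P3 stood at 0.19 and EIF3FP3 at 0.23. These 3 had the only paired estimates above 0 among the 29. Of the 16 tested copies of EEF1A1, 15 had a paired estimate below 0, and their median differences within replicates 1, 2 and 3 were -0.72, 0.04 and -0.62. EEF1A1 itself had differences of 0.02, -0.05 and 0.15, and the difference between copies and gene was not tested. EEF1A1P13 (chromosome 5, 14651941 to 14653329, minus strand), named after its values were seen, had 174, 263 and 231 counts in KD, against 221, 280 and 437 counts in NC. Its paired log2 difference was -0.46. Of the 29 tested copies, 19 had a mean under 100 counts, with a median of 22.5 per library, and all 19 had paired estimates below 0. Among the 10 with a mean of at least 100 counts, 3 had an estimate above 0. The filter asked for enough counts in 3 libraries of any group, so a low copy could pass through libraries of both groups. Low copies that passed it through 1 group alone had to differ between groups. Which copies did so was not examined, so the count of estimates below 0 is a description.

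Genes outside the 10 shared the overall course of levels over the libraries. By root mean square distance over the 6 libraries between centred log2 CPM and the mean of the 9 genes, the nearest of 9205 named genes at or above 10 CPM were CBX3 (0.01), a heterochromatin protein gene, NDUFB11 (0.01), a subunit of respiratory complex I, AURKA (0.01), a mitotic kinase, ZMAT2 (0.02), a spliceosome component, and TIMELESS (0.02), a replication fork protein. Ribosomal protein genes made up 2 of the nearest 50 and 0.847% of all genes searched, with the nearest at rank 23, and their median distance was 0.10, against 0.13 over all genes searched. The 9 genes themselves lay 0.04 (EEF1A1) to 0.17 (TPT1) from their own mean.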

How the data were processed

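The authors deposited raw counts of reads for each Ensembl gene ID, in htseq-count layout. The submitters' processing notes name FastQC 0.11.8, STAR 2.7.10a, HTSeq version 0.11.1 and DESeq2, with the hg38 build; annotation release, trimming and strand setting: not given in the sources used here, so antisense overlaps (34.0% of the exonic bases of EEF1D) cannot be told apart. Each file has 62703 gene IDs and 5 summary lines, which entered neither library sizes nor tests; gene counts were 33.5% to 60.2% of records. Symbols came from a name table (62686 IDs matched) and coordinates, lengths and overlaps from GENCODE 29 (GRCh38, 58264 IDs). IDs were matched without their version number, so the gene models that were counted may differ from these. No library repeated another within its group (chi-square divided by its degrees of freedom: 23.4 to 95.8).

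Counts were tested with edgeR 4.0.16 in R 4.3.3 (filterByExpr, TMM, robust quasi-likelihood F test, Benjamini-Hochberg over all 16929 genes). Log2 CPM used a prior count of 2. Same-numbered libraries deviated together (correlations of 0.89, 0.62 and 0.61, each over the limit of 0.1), so the fit with the replicate number as a block is given beside the main one; KD replicate 2 and NC replicate 3 correlated at 0.59, so replicate 1 carries most of the pairing, and the labels state none. Alternatives were RLE size factors, no filter, DESeq2 1.42.0, limma-voom (limma 3.58.1), copies added to their genes, and leaving out libraries. All 10 genes are named by rule, as are per context list up to 4 called genes or else the 2 with the smallest paired p, LARP1, MTOR and EEF1A2, the copy with the most counts per gene where it matters, and the 5 nearest genes by pattern. Some genes under the rule or in the marker lists enter the counts and are not reported here. The genes, lists and tests were chosen with earlier results of these data known.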

Additional observations from a re-analysis of the deposited data

How the results depend on the processing

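The number of called genes among the 9 was 0 under all 19 alternatives tried. Over all genes, the count was 0 without a block, and went to 29 in the blocked (paired) fit, also with RLE size factors, to 68 with the block and no filter, to 1 with DESeq2 and to 27 with DESeq2 and the block; it ranged from 0 to 119 when libraries or replicate numbers were left out, with 5, 119 and 73 in the blocked fit without replicate 1, 2 and 3. The block ended or made no call among the 9 genes. Leaving out 1 library without the block set the replicate 1 libraries against unequal groups, and the median log2 fold change ran from -0.075 (without NC replicate 1) to 0.16 (without KD replicate 1) for the 9 genes and from -0.015 (without KD replicate 3) to 0.18 (without KD replicate 1) for the ribosomal protein genes. Leaving out a replicate number in both groups, with the block, kept these medians within 0.01 to 0.05 and 0.07 to 0.09, while EEF2 (-0.031) and PABPC1 (-0.026) turned without replicate 2 and EEF1A1 (-0.010) and EEF1B2 (-0.0041) without replicate 3. TPT1 and EIF3H kept their direction under all 19 alternatives. With 1 library left out, EEF1A1 ran from -0.046 to 0.16, EEF1B2 from -0.075 to 0.18, EEF1D from -0.10 to 0.21, EEF2 from -0.14 to 0.21, PABPC1 from -0.092 to 0.16, EIF3E from -0.014 to 0.053 and EIF3F from -0.16 to 0.11, so their signs turned. EIF3F also turned with copies added (0.0059, and 0.0044 with the block). The causes were not tested.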
